A study of Homo sapiens with 12 samples.

Results

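The genes described are 10 heat shock proteins, taken by symbol from the 19923 genes of the count files: the cytosolic HSP70s HSPA1A, HSPA1B and HSPA8, the cytosolic HSP90 HSP90AA1, the HSP70 partners HSPH1, DNAJB1 and BAG3, the small heat shock protein HSPB1, and the mitochondrial chaperonin genes HSPD1 and HSPE1. RNA came from SK-N-BE2 and NGP cells, which are established lines of human neuroblastoma with amplified MYCN, and both are labelled wild type. Each line was kept for 6 days with STM2457, a small molecule that inhibits the m6A methyltransferase METTL3, or with DMSO alone as the control. The dose of STM2457 was 12 µM in SK-N-BE2 and 1 µM in NGP, and 3 replicates were sequenced in each of the 4 groups, which makes 12 libraries.

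Chaperones of the HSP70 and HSP90 families bind unfolded or partly folded proteins and release them in cycles driven by ATP. J-domain proteins such as DNAJB1 deliver clients to HSP70 and start its ATP hydrolysis, and nucleotide exchange factors such as HSPH1 and BAG3 let the client go. In the cytosol many of these genes are targets of the transcription factor HSF1, which binds heat shock elements, repeats of GAA that alternate in orientation, in their promoters. HSPD1 and HSPE1 make the chaperonin HSP60 and its lid HSP10, which fold proteins in the mitochondrial matrix.

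Libraries held between 47242379 and 58159937 counted reads, and the ranges of treated and control libraries overlapped in each line. NGP DMSO replicate 1 stood apart from the other controls of NGP, with a chi-square per degree of freedom over genes of 92.6 and 60.8 against them, while those 2 differed by 11.0. All other pairs within groups lay between 2.77 and 41.2, so no library was a copy of another. Of 9 markers of adrenergic neuroblastoma, 8 reached a mean of 1 CPM in every group. The markers of leukocytes, epithelial, endothelial and Schwann cells summed to at most 21.6 CPM per list in any library. The highest of these sums was that of the endothelial list in SK-N-BE2, from 16.1 to 21.6 CPM with DMSO and from 9.98 to 12.2 CPM with STM2457, and its part in the results was not tested. Headers of the deposited counts group the libraries by line, so line, dose and this batch cannot be told apart. Nothing in the labels says that replicates were separate cultures, so p-values measure only the spread between these libraries.

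The heat shock element is shown first, because it is the sequence through which HSF1 is known to bind promoters of this family. RefSeq promoter windows (GRCh38.p14), each from 250 bases before to 50 bases after a start site, were available for 10 of 10 members. They were searched for facing GAA repeats, GAANNTTC or TTCNNGAA, both of which read the same on either strand, and for overlapping runs of these. At least 1 such motif, which is 2 repeat units, was found in windows of 7 members, HSPA1A, HSPA1B, HSPA8, HSP90AA1, DNAJB1, HSPB1 and HSPD1. Runs of at least 3 units were found in 3 of them, HSPA8, HSP90AA1 and HSPD1. Among all 15085 genes with a window, 14.9% had at least 2 units and 0.537% at least 3. The members were chosen as HSF1-type and mitochondrial chaperones, and HSPA1A and HSPA1B are near-identical copies. The share of the members was therefore not tested against that of all genes. The windows of HSPH1, BAG3 and HSPE1 held no motif of these letters. Each stretch below has 30 bases and is written 5′ to 3′ on the gene's strand, with the repeat units and the bases between them in capitals.
HSPA1A (chr6:31815426-31815455, plus strand): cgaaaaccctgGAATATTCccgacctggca
HSPA1B (chr6:31827622-31827651, plus strand): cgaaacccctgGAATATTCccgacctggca
HSPA8, far (chr11:123062345-123062374, minus strand): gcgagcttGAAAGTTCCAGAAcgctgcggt
HSPA8, near (chr11:123062170-123062199, minus strand): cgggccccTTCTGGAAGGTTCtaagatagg
HSP90AA1, far (chr14:102087111-102087140, minus strand): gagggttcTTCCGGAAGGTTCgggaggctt
HSP90AA1, near (chr14:102087094-102087123, minus strand): gttcgggaggcTTCTGGAAaaagcgccgcg
DNAJB1, far (chr19:14518456-14518485, minus strand): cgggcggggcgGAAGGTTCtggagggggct
DNAJB1, near (chr19:14518426-14518455, minus strand): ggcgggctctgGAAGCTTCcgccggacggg
DNAJB1, other window (chr19:14517918-14517947, minus strand): ccgctcggccaGAAGCTTCtagcatgtctg
HSPB1 (chr7:76302480-76302509, plus strand): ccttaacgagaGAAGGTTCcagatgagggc
HSPD1 (chr2:197500061-197500090, minus strand): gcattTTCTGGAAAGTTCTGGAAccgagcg
The stretches of HSPA8 begin their capitals 230 and 55 bases before the start site of its window, and those of HSP90AA1 88 and 68 bases before. DNAJB1 has 3 motifs, at 77 and 47 bases before the start site of its second window and 1 base after that of another window. The single stretch of HSPD1 has 4 units, the longest run among the members, and lies 245 bases before the start site of its second window. The stretches of HSPA8, HSP90AA1 and HSPD1 fall within exons of the longer transcripts that the count files include for these genes. HSPE1 is read in the opposite direction from the same locus as HSPD1. Its start site is 105 bases from the upstream start site of HSPD1, and 204 bases of its window are shared with that HSPD1 window. The stretch of HSPD1 shown here lies just outside the HSPE1 window.

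Of the 10 members, 8 had reads enough to test. Values below are CPM, a gene's reads relative to all counted reads of its library, with TMM scaling between libraries, and a gene is called when its edgeR quasi-likelihood adjusted p, over all genes tested, is below 0.05. With STM2457, 5 of the 8 rose in SK-N-BE2 (HSPA8, HSP90AA1, HSPH1, HSPD1 and HSPE1), and DNAJB1 and BAG3 fell. In NGP 6 of the 8 rose (HSPA8, HSP90AA1, DNAJB1, BAG3, HSPD1 and HSPE1) and none fell, while HSPH1 and HSPB1 were not called. Both lines are read against a background in which much of the transcriptome was called. In SK-N-BE2 this was 54.7% of 14013 genes, 26.9% higher and 27.8% lower. In NGP it was 41.7% of 13610 genes, 19.4% higher and 22.2% lower. The median log2 fold change of the 8 was 0.47 in SK-N-BE2 and 1.02 in NGP, beside -0.02 and -0.03 over all genes tested. Libraries of the 2 treatments did not overlap for 5 members higher and 2 lower in SK-N-BE2, where 33.2% and 29.0% of all genes did the same. In NGP they did not overlap for 7 members higher and 0 lower, where the shares of all genes were 28.4% and 26.2%. Libraries are scaled to each other without a spike-in, so all changes are relative to the rest of the RNA, and in bulk samples fewer cells of a type and less RNA per cell cannot be told apart.

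Under STM2457 the 10 genes together took a larger part of the counted reads in both lines, with almost no reads from HSPA1A and HSPA1B. Their summed level in SK-N-BE2 was 3035, 2936 and 2526 CPM with DMSO in replicates 1, 2 and 3, and 5223, 5301 and 4994 CPM with STM2457. In NGP it was 2179, 1947 and 2009 CPM with DMSO and 4975, 4861 and 5235 CPM with STM2457. No treated library of a line overlapped its controls, and HSPA8 and HSP90AA1 with HSPD1 made up most of each sum. As a share of counted reads the mean went from 0.279% to 0.516% in SK-N-BE2, while in NGP it went from 0.210% to 0.497%.

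**Figure D1:**
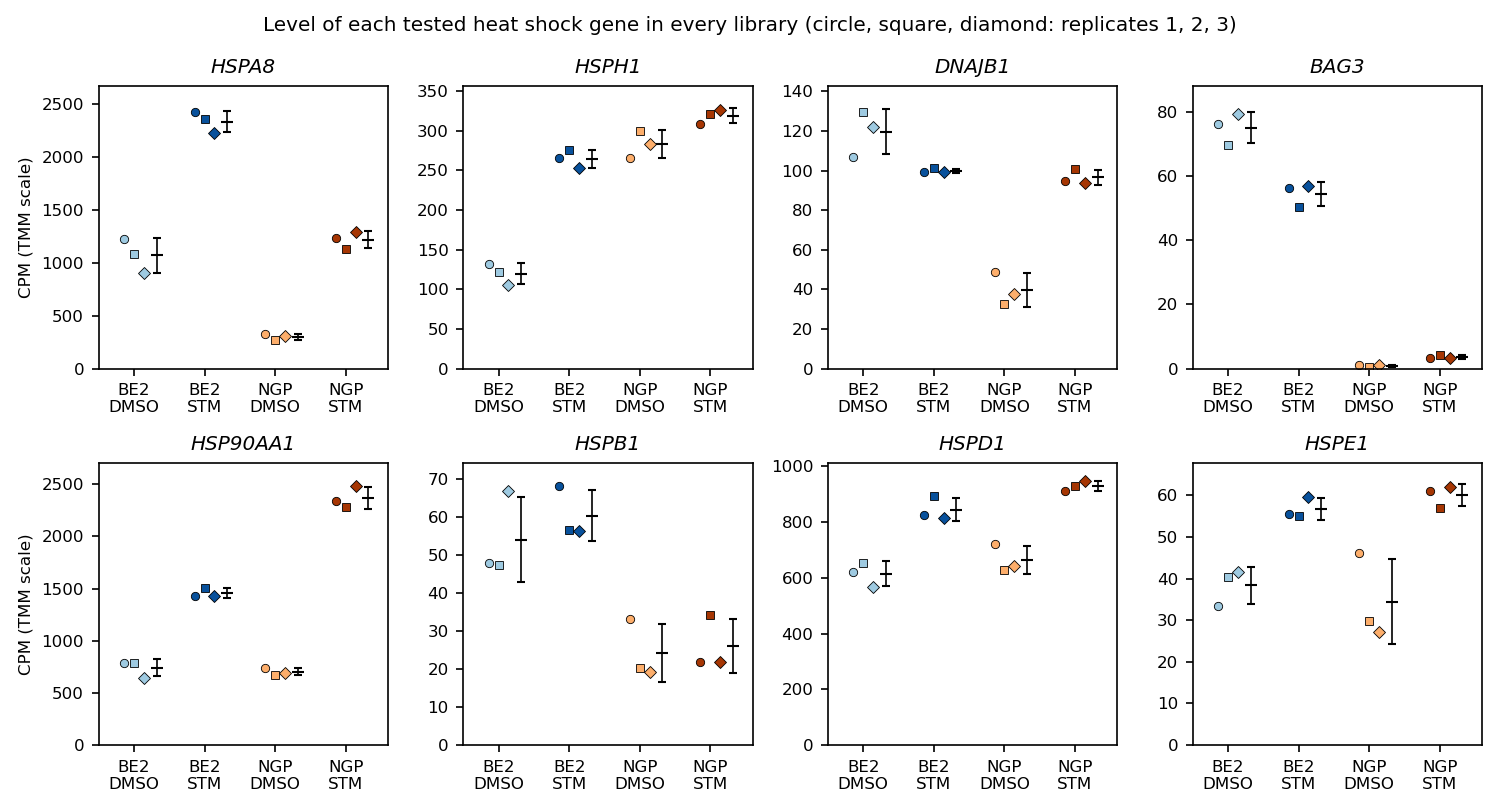
Level of the 8 tested genes in each of the 12 libraries, in CPM on a linear axis from 0, by line (BE2 is SK-N-BE2) and treatment (STM is STM2457). Symbols are replicates and the black mark is the mean with its SD (n = 3). HSPA8 and HSP90AA1 were higher with STM2457 in both lines, DNAJB1 and BAG3 were lower in SK-N-BE2 and higher in NGP, and HSPB1 overlapped between treatments in both.

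The stress-inducible HSP70 genes HSPA1A and HSPA1B had almost no reads. HSPA1A (chromosome 6, 31815543 to 31817946, plus strand) had 2 reads in SK-N-BE2 DMSO replicate 1, 2 in STM2457 replicate 1 of the same line and 0 in the other 10 libraries. HSPA1B (chromosome 6, 31827738 to 31830254, plus strand) had 0 reads in all 12. A count of 0 allows up to 3 uniquely placed fragments per library, as counting error only, and each fragment can add up to 2 reads. The 2 genes are near-identical copies, 9792 bases apart, and reads that map to both were not counted. Of the 100-base words in their transcripts, 69.5% in HSPA1A and 72.8% in HSPA1B also occur in another gene, so these counts limit only reads that cover the remaining positions. The level of this inducible pair is therefore uncertain and enters no comparison of single genes, and the summed level above leaves it almost unmeasured.

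HSPA8 encodes HSC70, the HSP70 of unstressed cells. It lies on chromosome 11 (123057489 to 123063230, minus strand), and 11.4% of its exon length lies under an opposite-strand gene, so its level is uncertain, since reads were counted without strand. In SK-N-BE2 it measured 1229, 1085 and 899 CPM with DMSO and 2421, 2361 and 2226 CPM with STM2457. In NGP it measured 324, 265 and 305 CPM with DMSO and 1231, 1133 and 1294 CPM with STM2457. Every treated library was above every control of its line, and the treated NGP libraries reached the level of the SK-N-BE2 controls. The fold change was 2.12 in SK-N-BE2 (log2 1.09, SE 0.12, edgeR adjusted p 4.68e-06) and 4.02 in NGP (log2 2.01, SE 0.11, edgeR adjusted p 9.50e-06).

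HSP90AA1 encodes the inducible cytosolic HSP90 (chromosome 14, 102080738 to 102139699, minus strand). It measured 786, 789 and 646 CPM with DMSO in SK-N-BE2 and 1429.8, 1509 and 1428 CPM with STM2457. In NGP the controls measured 739, 671 and 694 CPM and the treated libraries 2343, 2281 and 2487 CPM. The controls of the lines overlapped, whereas the treated NGP libraries were all above the treated SK-N-BE2 libraries. The fold change was 1.92 in SK-N-BE2 (log2 0.94, SE 0.10, edgeR adjusted p 5.54e-06) and 3.32 in NGP (log2 1.73, SE 0.10, edgeR adjusted p 9.32e-06). Across the 12 libraries, centred on the mean of each line, log2 CPM of HSPA8 and HSP90AA1 had a Pearson r of 0.997, a value that includes the treatment step both genes share. Per length of exon, the ratio of HSP90AA1 to HSP90AB1, its constitutive counterpart, went from 0.216 ± 0.0105 with DMSO to 0.341 ± 0.00386 under treatment in SK-N-BE2 (SD, n = 3). In NGP it went from 0.258 ± 0.0112 to 0.541 ± 0.00511. HSP90AB1 itself was named after its values were seen. Its log2 fold change was 0.28 (SE 0.10) in SK-N-BE2 and 0.66 (SE 0.10) in NGP, called in both, although omitting DMSO replicate 3 or any 1 STM2457 library ended the call in SK-N-BE2 (largest edgeR adjusted p 0.0995).

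HSPH1 encodes HSP110, an HSP70 relative that acts as a nucleotide exchange factor (chromosome 13, 31134973 to 31162388, minus strand). In SK-N-BE2 it measured 132, 121 and 106 CPM with DMSO and 265, 275 and 253 CPM with STM2457. In NGP it measured 265, 300.1 and 284 CPM with DMSO and 308, 321 and 327 CPM with STM2457. The SK-N-BE2 groups were far apart, and the NGP groups did not overlap but lay close together, with treated SK-N-BE2 near the NGP controls. The fold change was 2.15 in SK-N-BE2 (log2 1.11, SE 0.09, edgeR adjusted p 6.18e-07) and close to that of HSPA8. In NGP it was 1.11 (log2 0.15, SE 0.09) and was not called (edgeR adjusted p 0.229). HSPH1 was thus the only tested member called higher in SK-N-BE2 and not called in NGP, and the test of that difference follows below.

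DNAJB1 encodes HSP40, the J-domain partner of cytosolic HSP70 (chromosome 19, 14514769 to 14529770, minus strand). It measured 107, 129 and 122 CPM with DMSO in SK-N-BE2 and 99.3, 101 and 99.5 CPM with STM2457. The NGP libraries held 49.0, 32.6 and 37.5 CPM with DMSO and 94.8, 101 and 93.8 CPM with STM2457. Treated libraries were below all controls in SK-N-BE2 and above all controls in NGP, so that the treated libraries of both lines lay between 93.8 and 101 CPM. The ratio of treated to control was 0.815 in SK-N-BE2 (log2 -0.30, SE 0.09, edgeR adjusted p 0.0106) and 2.39 in NGP (log2 1.26, SE 0.15, edgeR adjusted p 0.000357). A joint fit of all 12 libraries did not call the fall in SK-N-BE2 (log2 fold change -0.26, edgeR adjusted p 0.106).

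BAG3 encodes a co-chaperone that links HSP70 to small heat shock proteins and to selective autophagy (chromosome 10, 119651370 to 119677819, plus strand). In SK-N-BE2 it measured 76.4, 69.9 and 79.4 CPM with DMSO and 56.3, 50.3 and 57.1 CPM with STM2457. The NGP libraries held only 0.953, 0.548 and 1.15 CPM with DMSO and 3.27, 4.28 and 3.23 CPM with STM2457. It fell in SK-N-BE2 and rose in NGP without overlap, from a control level that differed widely between the lines. The ratio of treated to control was 0.707 in SK-N-BE2 (log2 -0.50, SE 0.09, edgeR adjusted p 0.000281) and 3.99 in NGP (log2 2.00, SE 0.30, edgeR adjusted p 0.00109). The latter rests on 135 reads over the 3 controls and 517 over the 3 treated libraries. Centred by line, DNAJB1 and BAG3 had a Pearson r of 0.954 over the 12 libraries, against -0.07 for DNAJB1 and HSPH1. These values describe libraries that share their treatment groups.

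DNAJB1 and BAG3 were the members called in opposite directions in the 2 lines, where 4.96% of the 12952 genes tested in both lines were so called. HSPA6, a strictly inducible HSP70 with few reads, was singled out after its values were seen, and its reads shared with similar genes were not counted. It had 179 reads over the SK-N-BE2 controls and 36 over the treated libraries, 1.15 ± 0.544 and 0.228 ± 0.132 CPM (SD, n = 3), and was called lower (log2 -2.35, SE 0.50, edgeR adjusted p 0.00136). In NGP it had 16 and 56 reads, and its log2 fold change of 1.82 (SE 0.74) was not called (edgeR adjusted p 0.0788). Without NGP DMSO replicate 1 it was called there, at 3.19 (edgeR adjusted p 0.00816). The difference between the lines was -4.17 (SE 0.95, edgeR adjusted p 0.00454).

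HSPB1 encodes HSP27, a small heat shock protein that holds unfolded proteins without ATP (chromosome 7, 76302673 to 76304295, plus strand). In SK-N-BE2 it measured 47.9, 47.3 and 66.9 CPM with DMSO and 68.3, 56.5 and 56.5 CPM with STM2457. In NGP it measured 33.1, 20.2 and 19.2 CPM with DMSO and 21.9, 34.2 and 21.8 CPM with STM2457. Treated and control libraries overlapped in both lines, and 1 library of each group was well above the other 2. The fold changes of 1.09 in SK-N-BE2 (log2 0.12, SE 0.13, edgeR adjusted p 0.436) and 1.06 in NGP (log2 0.08, SE 0.25, edgeR adjusted p 0.823) were not called. Without SK-N-BE2 DMSO replicate 3, the highest control of that line, HSPB1 was called higher there (log2 fold change 0.30, edgeR adjusted p 0.0310).

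HSPD1 and HSPE1 are read in opposite directions from the same locus on chromosome 2, at 197486584 to 197516737 (minus strand) and 197500140 to 197503449 (plus strand). In the annotation used for counting, HSPE1 lies within the span of HSPD1. HSPD1 measured 623, 654 and 565 CPM with DMSO in SK-N-BE2 and 827, 894 and 815 CPM with STM2457. The NGP libraries held 722, 627 and 642 CPM with DMSO and 912, 929 and 947 CPM with STM2457. Each treated library was above all controls of its line. The fold change was 1.34 in SK-N-BE2 (log2 0.42, SE 0.09, edgeR adjusted p 0.00160) and 1.38 in NGP (log2 0.46, SE 0.09, edgeR adjusted p 0.00506).

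HSPE1 measured 33.4, 40.3 and 41.7 CPM with DMSO in SK-N-BE2 and 55.5, 55.0 and 59.7 CPM with STM2457. In NGP it measured 46.2, 29.9 and 27.3 CPM with DMSO and 61.1, 57.0 and 62.1 CPM with STM2457. Again the groups did not overlap, with NGP DMSO replicate 1 the highest control. The fold change was 1.44 in SK-N-BE2 (log2 0.52, SE 0.10, edgeR adjusted p 0.000565) and 1.71 in NGP (log2 0.78, SE 0.19, edgeR adjusted p 0.0112). Counts of HSPE1 are uncertain, since 17.9% of its exon length is shared with HSPD1 and the read-through gene HSPE1-MOB4. HSPE1-MOB4 had 0 reads in every library, which cannot speak for read-through, since reads in shared exons do not belong to 1 gene alone. Levels of HSPE1 per length may be too low for the same reason. The ratio of HSPE1 to HSPD1 per length was 0.142 ± 0.0230 and 0.152 ± 0.0132 in SK-N-BE2 with DMSO and STM2457 (SD, n = 3). In NGP it was 0.116 ± 0.0253 and 0.146 ± 0.00655, and the replicates of the treatments overlapped in both lines. HSPA8, HSP90AA1, HSPD1 and HSPE1 were called higher in both lines, 4 of the 8 members, where 10.5% of genes were.

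**Figure D2:**
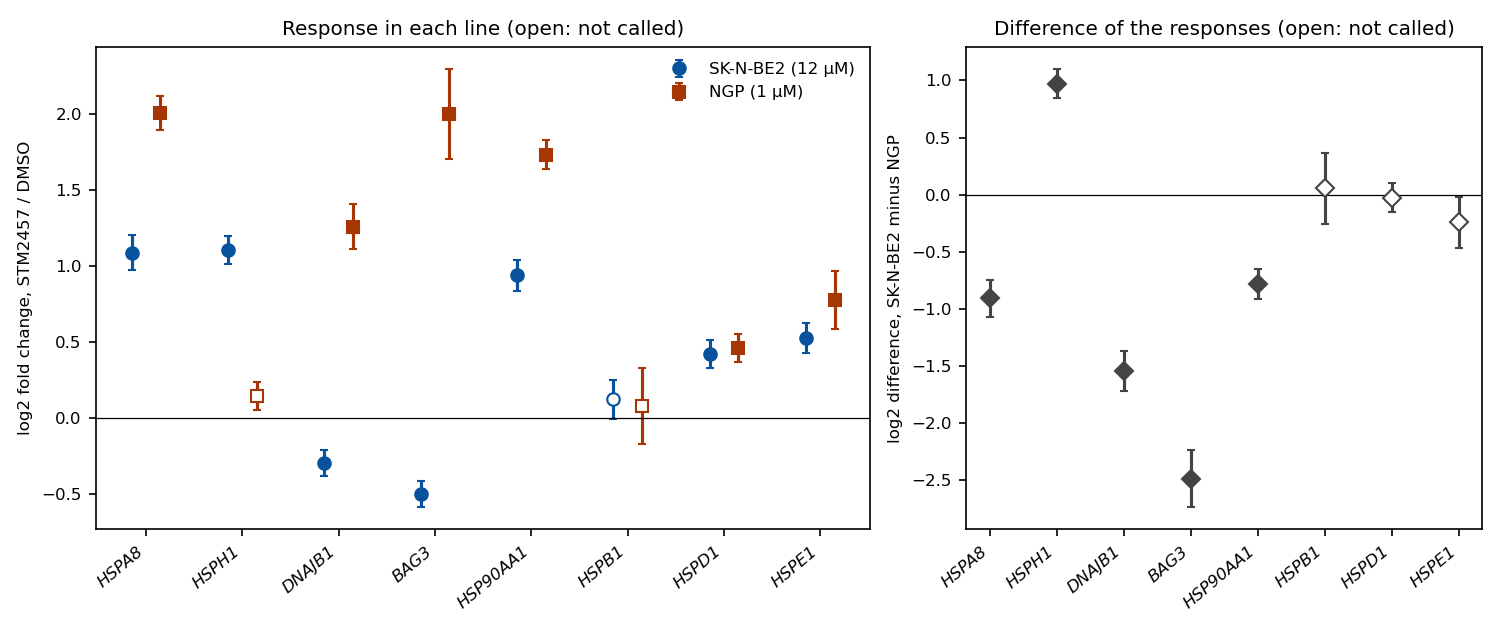
Log2 fold change of each tested gene, STM2457 against DMSO, in each line (left) and the difference of the 2 responses, SK-N-BE2 minus NGP (right). Bars are standard errors, and open symbols were not called. The response was 0.97 larger in SK-N-BE2 for HSPH1, and the differences of HSPA8, HSP90AA1, DNAJB1 and BAG3 lie between -0.78 and -2.49.

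The difference between the responses of the lines was tested directly over the 12 libraries, and 5 of the 8 members were called, 1 higher and 4 lower in SK-N-BE2 than in NGP. Among all 14731 genes 30.9% were called, 17.0% higher and 13.9% lower. The log2 difference was -2.49 for BAG3 (SE 0.25, edgeR adjusted p 8.24e-06) and -1.54 for DNAJB1 (SE 0.18, edgeR adjusted p 2.36e-05). HSPA8 and HSP90AA1 rose in both lines, less in SK-N-BE2, with differences of -0.91 (SE 0.16, edgeR adjusted p 0.000926) and -0.78 (SE 0.13, edgeR adjusted p 0.000612). HSPH1 went the other way, at 0.97 (SE 0.13, edgeR adjusted p 8.32e-05). No difference was called for HSPB1 (0.06, SE 0.31), HSPD1 (-0.02, SE 0.12) or HSPE1 (-0.24, SE 0.22). HSPE1 was called without NGP DMSO replicate 1, at -0.53 (edgeR adjusted p 0.00627).

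Control levels were compared next, since the lines began from different points. Between the DMSO groups 5 of the 8 members were called, where 71.1% of all genes were, 35.7% higher and 35.4% lower in SK-N-BE2. BAG3 was 85.0-fold higher in SK-N-BE2 (log2 6.41, SE 0.20), HSPA8 3.59-fold, DNAJB1 3.01-fold and HSPB1 2.24-fold. HSPH1 was 2.36-fold lower. The edgeR adjusted p of these 5 ran from 3.24e-12 for BAG3 to 0.000308 for HSPB1. HSP90AA1 (log2 0.08, SE 0.09), HSPD1 (-0.11, SE 0.09) and HSPE1 (0.16, SE 0.16) were not called, and HSPE1 was called without NGP DMSO replicate 1 (0.45, edgeR adjusted p 0.00109). Of the 4 members with higher controls in SK-N-BE2, HSPA8, DNAJB1 and BAG3 had the smaller response there, and HSPB1 had no called difference in response. HSPH1, with lower controls there, had the larger response, while HSP90AA1 had the smaller response although its controls were not called different. The DMSO libraries enter both quantities, so these pairings carry no test.

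Levels of different genes were compared per kilobase of exon (CPM per kb). The length used joins the exons of all transcripts that the count files include for a gene. It can exceed the length of the mRNA present, so the order of genes depends on it. In the SK-N-BE2 controls the order from the top was HSPA8 (221 ± 34.2), HSPD1 (149 ± 10.9), HSP90AA1 (141 ± 15.6), HSPB1 (35.9 ± 7.42), DNAJB1 (32.8 ± 3.13), BAG3 (27.4 ± 1.76), HSPE1 (21.1 ± 2.45) and HSPH1 (14.3 ± 1.59; SD, n = 3). The replicates of HSPD1 and HSP90AA1 overlapped, as did those of HSPB1 and DNAJB1, and the other neighbours were apart. In the NGP controls HSPD1 led (161 ± 12.5), followed by HSP90AA1 (134 ± 6.55) and HSPA8 (61.5 ± 6.13), and BAG3 was lowest of the 8 (0.321 ± 0.111). With STM2457 HSPA8 led in SK-N-BE2 (482 ± 20.7) and HSP90AA1 in NGP (452 ± 20.1). These 2 levels ranked at places 39 and 46 among all genes of the files in their groups. HSPA8 had been at place 127 in the SK-N-BE2 controls and HSP90AA1 at place 196 in the NGP controls.

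The balance between HSP70 and its partners was described by ratios per length, with no test. The ratio of DNAJB1 to HSPA8 went from 0.152 ± 0.0330 to 0.0569 ± 0.00244 in SK-N-BE2, while in NGP it went from 0.176 ± 0.0217 to 0.106 ± 0.0115 (SD, n = 3). It was lower in every treated library than in every control in both lines. The ratio of HSPH1 to HSPA8 went from 0.0649 ± 0.00290 to 0.0655 ± 0.00210 in SK-N-BE2, where both genes rose by a like factor. In NGP it went from 0.555 ± 0.0912 to 0.151 ± 0.0108. The ratio of BAG3 to HSPA8 went from 0.126 ± 0.0256 to 0.0413 ± 0.00382 in SK-N-BE2, while in NGP it went from 0.00516 ± 0.00150 to 0.00526 ± 0.00123.

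**Figure D3:**
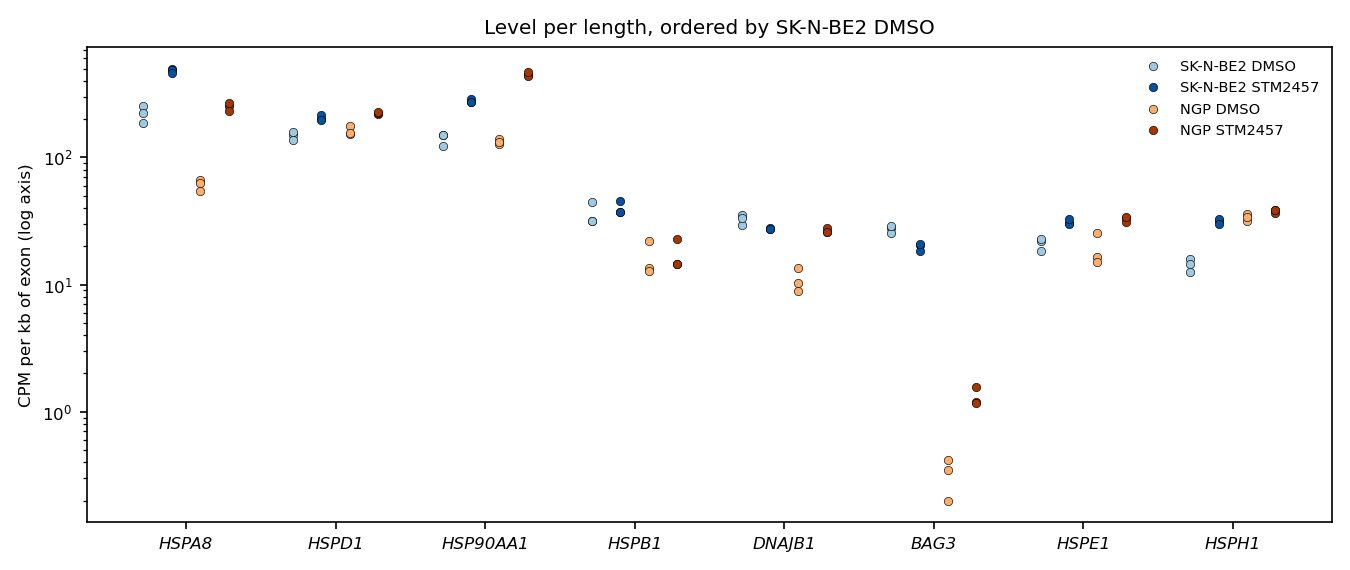
Level of the 8 tested genes in CPM per kilobase of exon on a log axis, each point 1 library, coloured by line and treatment. Genes are ordered by their mean in SK-N-BE2 DMSO, from HSPA8 (221) to HSPH1 (14.3), and BAG3 in NGP stands lowest.

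The rest of the cytosolic HSP70 and HSP90 machinery was read from a list of 28 co-chaperones and family members. In SK-N-BE2, 12 rose and 5 fell of 28 tested, with a median log2 fold change of 0.21. In NGP, 11 rose and 4 fell of 27, with a median of 0.23. The shares called were 60.7% and 55.6%, beside the 54.7% and 41.7% of all genes. Of all genes, 26.9% were called higher and 27.8% lower in SK-N-BE2, and 19.4% higher and 22.2% lower in NGP. HSPA4L, an HSP110 relative of HSPH1, had the largest rise in SK-N-BE2 (log2 1.21, SE 0.09) and fell in NGP (-0.76, SE 0.18). FKBP5, an immunophilin that binds HSP90, rose in SK-N-BE2 (0.94, SE 0.09) and had a log2 fold change of 0.11 (SE 0.12, not called) in NGP. In NGP the largest rises were those of HSPA2, another HSP70 (2.64, SE 0.22), and CHORDC1, an HSP90 co-chaperone (0.95, SE 0.12). CHORDC1 also rose in SK-N-BE2 (0.55, SE 0.09), where HSPA2 was not called (0.14, SE 0.15). The mean of HSPA2 in NGP went from 2.15 to 13.7 CPM. DNAJB4, a J-domain protein close to DNAJB1, fell in SK-N-BE2 (-0.71, SE 0.11) and rose in NGP (0.61, SE 0.11). DNAJB2 fell in both lines, by 0.36 (SE 0.09) and 1.78 (SE 0.20) on the log2 scale, and the SK-N-BE2 call was lost in the joint fit (edgeR adjusted p 0.0983).

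Genes whose line-centred log2 CPM followed HSPH1 most closely over the 12 libraries were HSPA4 (Pearson r 0.994), ADD2 (0.993), MYB (0.992), FKBP5 (0.987) and DHX8 (0.986). HSPA4 encodes another HSP110 protein, with a log2 fold change of 0.77 (SE 0.08) in SK-N-BE2 and 0.15 (SE 0.09, not called) in NGP. HSPD1 was followed most closely by CCNB2 (0.989), DDX24 (0.989), MAGED1 (0.988), PTGES3 (0.987) and VRK1 (0.986). Of these, PTGES3 encodes p23, a co-chaperone of HSP90. These values again describe libraries that share their treatment groups.

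The TRiC chaperonin and prefoldin, which fold actin and tubulin, had few called genes. In SK-N-BE2 3 of 14 rose and 2 fell (median log2 fold change -0.01), and in NGP 2 rose and 0 fell (median 0.02). The shares called, 35.7% and 14.3%, were below those of all genes, 54.7% and 41.7%. CCT3 rose in SK-N-BE2 (0.36, SE 0.08) and NGP (0.33, SE 0.11), TCP1 in SK-N-BE2 (0.36, SE 0.08) and CCT5 in NGP (0.34, SE 0.10), while the prefoldin subunits PFDN4 (-0.55, SE 0.10) and PFDN5 (-0.35, SE 0.11) fell in SK-N-BE2. The call of PFDN5 was lost in the joint fit (edgeR adjusted p 0.174) and without STM2457 replicate 1 (0.0637) or 2 (0.0553). CCT5 is uncertain, with 30.8% of its exon length under an opposite-strand gene. The NGP call of CCT3 was lost in 5 of 6 fits that left out 1 NGP library, and that of CCT5 in 4 of 6. Without NGP DMSO replicate 1 the NGP count of 2 became 6. Without DMSO replicate 3, STM2457 replicate 1 or STM2457 replicate 3 it became 0, and without either of the other 2 libraries it became 1. The SK-N-BE2 count of 5 became 3 without STM2457 replicate 1 or 2.

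HSF1, whose activity is set mainly by its protein state, went from 122 ± 14.2 to 108 ± 7.98 CPM in SK-N-BE2, while in NGP it went from 129 ± 23.8 to 79.9 ± 14.0 CPM (SD, n = 3). It fell in NGP (log2 -0.72, SE 0.17, edgeR adjusted p 0.00883). The SK-N-BE2 value was not called (log2 -0.21, SE 0.10, edgeR adjusted p 0.0783) but became so without DMSO replicate 1 (-0.28, edgeR adjusted p 0.0214) and with upper-quartile scaling (-0.26, edgeR adjusted p 0.0362). The difference between the lines was not called (edgeR adjusted p 0.0679). Among the 8 tested heat shock factors and regulators 3 rose and 3 fell in SK-N-BE2, and 1 rose and 1 fell in NGP. That is 75.0% and 25.0% called, beside 54.7% and 41.7% of all genes. TRIM28, a corepressor, rose in SK-N-BE2 (0.36, SE 0.08). HSBP1, which binds HSF1, was called higher in SK-N-BE2 (0.26, SE 0.09) and NGP (0.45, SE 0.11), and the translation factor EEF1A1 (-0.32, SE 0.12) and the deacetylase SIRT1 (-0.23, SE 0.09) lower in SK-N-BE2. Of these, HSBP1 lost its call in 5 of 6 fits that left out 1 SK-N-BE2 library and 3 of 6 that left out 1 NGP library, EEF1A1 in 4 of 6 and SIRT1 in 5 of 6. In the joint fit the calls of EEF1A1 and SIRT1 were lost (edgeR adjusted p 0.0832 and 0.132), and with upper-quartile scaling that of HSBP1 in SK-N-BE2 (0.0605). The SK-N-BE2 count of 6 became 2 without any 1 STM2457 library. The NGP count of 2 became 4 without DMSO replicate 1 and 1 without DMSO replicate 3, STM2457 replicate 1 or STM2457 replicate 3.

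Mitochondrial chaperones and proteases other than HSPD1 and HSPE1 mostly fell where they were called. Of 18 tested, 2 rose and 9 fell in SK-N-BE2 (median log2 fold change -0.23), and 3 rose and 7 fell in NGP (median -0.22). The shares called were 61.1% and 55.6%, beside the 54.7% and 41.7% of all genes. HSPA9, the mitochondrial HSP70, was singled out after its values were seen because it works beside HSPD1. It fell from 1028 ± 93.3 to 661 ± 18.9 CPM in SK-N-BE2, while in NGP it went from 1346 ± 24.1 to 719.9 ± 25.6 CPM (SD, n = 3), log2 fold changes of -0.67 (SE 0.10) and -0.93 (SE 0.09). Among the genes of that list with at least 10 CPM, the largest falls in SK-N-BE2 were those of GRPEL2 and TIMM44. GRPEL2 (-1.33, SE 0.09) is a nucleotide exchange factor of HSPA9, and TIMM44 (-1.08, SE 0.10) is an import motor subunit. In NGP the largest falls were those of the matrix protease LONP1 (-1.25, SE 0.15) and HSCB, an iron-sulfur J-domain protein (-1.03, SE 0.21). The exons of HSCB overlap CHEK2 by 20.1%. GRPEL2 also fell in NGP (-0.67, SE 0.11). GRPEL1, the other GRPEL gene of the list, fell in SK-N-BE2 (-0.28, SE 0.08) and rose in NGP (0.38, SE 0.11). Among the genes that rose were the inner-membrane protease subunits SPG7 (0.71, SE 0.09, and 0.92, SE 0.12, in SK-N-BE2 and NGP) and AFG3L2 (0.53, SE 0.10, in SK-N-BE2), the latter with 12.8% of its exons shared with TUBB6. The processing peptidase subunit PMPCA rose in NGP (0.43, SE 0.14), a call lost in 5 of 6 fits that left out 1 library.

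ER chaperones, many of which answer to the unfolded protein response, were set beside the members. In SK-N-BE2, 1 rose and 11 fell of 15 (median log2 fold change -0.54), and in NGP 5 rose and 3 fell (median 0.26). That is 80.0% and 53.3% called, beside 54.7% and 41.7% of all genes. For 13 of the 15 the response was called lower in SK-N-BE2 than in NGP, where 13.9% of all genes were. DNAJB9 fell in both lines (-2.19, SE 0.09, and -1.16, SE 0.11), as did HYOU1 (-1.14, SE 0.09, and -0.54, SE 0.09). PDIA4, a disulfide isomerase, rose in both (0.37, SE 0.09, and 0.88, SE 0.09), and the lectin chaperone CALR rose in NGP (1.04, SE 0.12). Of the 6 tested cytosolic members, HSPA8, HSP90AA1 and HSPH1 rose in SK-N-BE2, DNAJB1 and BAG3 fell as 11 of the 15 ER chaperones did, and HSPB1 was not called.

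**Figure D4:**
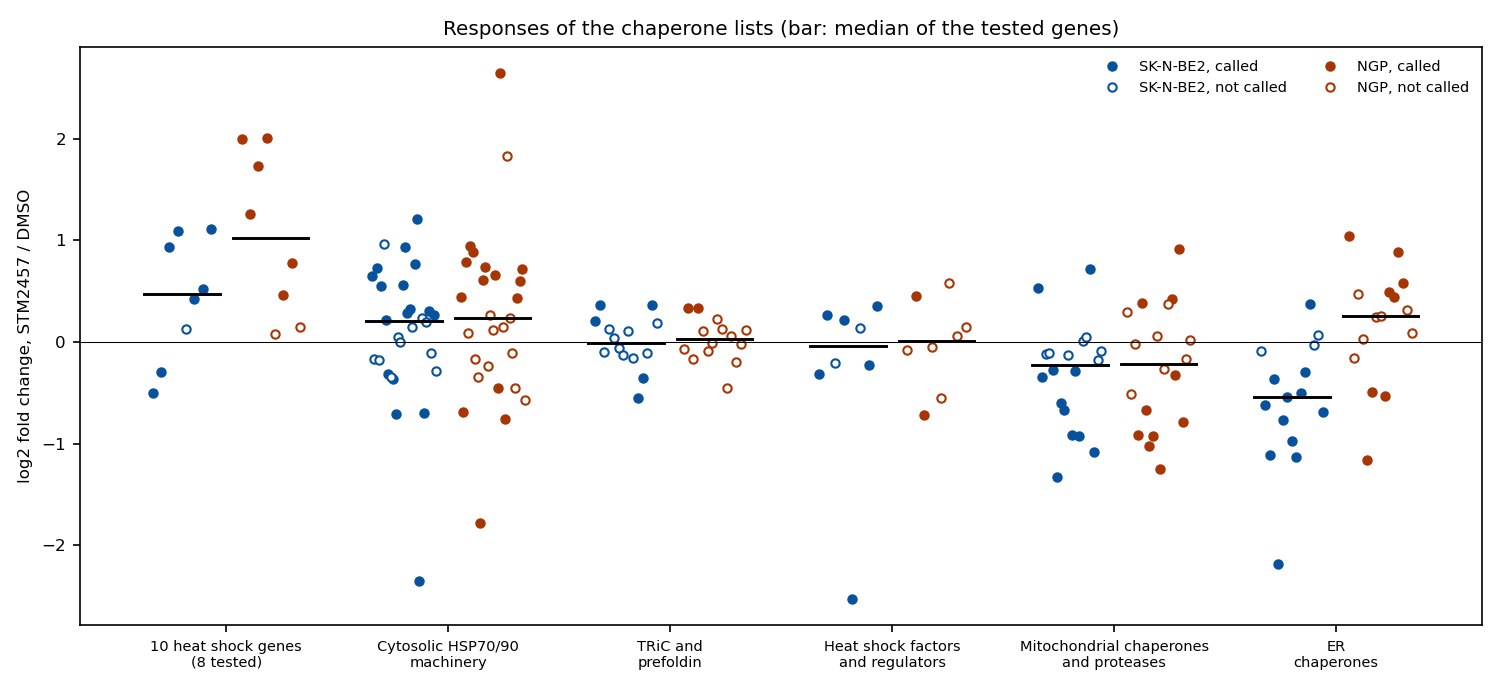
Log2 fold change, STM2457 against DMSO, of every tested gene of the 10 heat shock genes and 5 chaperone lists, in SK-N-BE2 and NGP. Filled points were called, open points were not, and bars are medians. The median of the heat shock genes is 0.47 and 1.02, and that of the ER chaperones is -0.54 and 0.26, in SK-N-BE2 and NGP respectively.

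The heat shock element of the opening was counted over the same lists. At least 2 units were present for 45.5% of 22 cytosolic genes with a window, 33.3% of 12 TRiC and prefoldin genes, 16.7% of 6 heat shock factors and regulators, 6.67% of 15 mitochondrial genes and 14.3% of 14 ER chaperones. Among the tested members, HSPA8, HSP90AA1, DNAJB1, HSPB1 and HSPD1 carried the motif, and in SK-N-BE2 the calls of these 5 were 3 higher, 1 lower and 1 not called. In NGP 4 of the 5 were called higher and HSPB1 was not called. HSPH1, BAG3 and HSPE1, without a motif in these windows, were called 2 higher and 1 lower in SK-N-BE2, whereas in NGP 2 were higher and 1 was not called. Over all genes tested, 26.9% were called higher and 27.8% lower in SK-N-BE2, and 19.4% higher and 22.2% lower in NGP. A match of letters is a description of these windows and was not tested against binding.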

How the data were processed

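Polyadenylated RNA of 12 libraries was sequenced. The authors assigned reads to exons, grouped by gene name, with featureCounts 2.0.5 on GRCh38 and the protein-coding part of GENCODE 33, per the file headers, without strand and without multi-mapping reads. Read pairs were counted as single reads, so a fragment can add up to 2. The submitters' processing notes name HISAT2 2.1.0, Trimmomatic 0.36, FastQC 0.11.5 and Subread 1.5.3. The deposited values are whole-number counts, not normalized. Groups and replicates come from the sample titles.

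Each line was fitted on its own 6 libraries with edgeR 4.0.16 (R 4.3.3): filterByExpr (minimum count 10), TMM, quasi-likelihood test, and Benjamini-Hochberg adjustment over all genes at 0.05. The difference between responses and between DMSO groups were contrasts of 4 group means over 12 libraries. Each standard error is the log2 fold change divided by the square root of F. The fits were tested on simulated data.

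Members are all described. HSF1 is always named, and each list gives up to 2 called rises and 2 falls per line with at least 10 CPM. Members and lists were chosen with earlier results of these data known. Genes with over 10% of exon length under another gene are called uncertain. Alternatives were DESeq2 1.42.0, its size factors, a minimum mean of 1 CPM, no filter, upper-quartile factors, halved counts, a replicate block, a joint fit, the 6 DMSO libraries alone for the DMSO contrast, and leaving out each library.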

Additional observations from a re-analysis of the deposited data

Results flagged for a closer look

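For 5 members the response to STM2457 differed between the lines by a test of the difference itself (SK-N-BE2 minus NGP, log2, edgeR quasi-likelihood test over 12 libraries). It was lower in SK-N-BE2 for HSPA8 (-0.91), HSP90AA1 (-0.78), DNAJB1 (-1.54) and BAG3 (-2.49), and higher for HSPH1 (0.97). DNAJB1 and BAG3 moved in opposite directions, with every treated library below the controls in SK-N-BE2 and above them in NGP. Across the single-library omissions these differences stayed called, with ranges from -1.05 to -0.83 for HSPA8, -0.90 to -0.74 for HSP90AA1, -1.74 to -1.42 for DNAJB1, -2.72 to -2.23 for BAG3 and 0.87 to 1.02 for HSPH1.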

How the results depend on the processing

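The counts of members called (7, 6, 5 and 5 of 8 in SK-N-BE2, NGP, their difference and the DMSO contrast, and 4 higher in both lines) stayed within 1.5 times under every alternative run. The count for SK-N-BE2 was 6 in the joint fit. With 1 library left out, SK-N-BE2 had 6497 to 7849 called genes and NGP 3816 to 7897, highest without NGP DMSO replicate 1, whose omission lowered the biological coefficient of variation from 0.155 to 0.0944. Values near 0 changed sign: the HSPB1 response in NGP (-0.14 to 0.37 over the omissions), the HSPB1 difference between lines (-0.00916 with upper-quartile factors, -0.25 to 0.30 over the omissions) and the HSPD1 difference (0.00161 with no filter, -0.11 to 0.0138 over the omissions). The cause was not tested. Replicate numbers did not pair the samples: correlations of deviations between same-numbered libraries were -0.08, 0.08 and 0.01 for SK-N-BE2, and for NGP 0.004, -0.11 and 0.02, and not every library correlated best with its own number. With the replicate number as a block, 7, 6, 5 and 5 members and 7522, 5026, 4025 and 10233 genes of all tested were called. In that fit the calls of EEF1A1 in SK-N-BE2 (edgeR adjusted p 0.0657) and CCT3 in NGP (0.0535) were lost and the NGP count of TRiC and prefoldin genes was 1. HSPA1A, HSPA1B and HSPA6, and BAG3 in NGP, rest on few reads, and reads shared by HSPA1A and HSPA1B were not counted. What limits the other values, depth or the number of replicates, was not tested.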
